A study of Mus musculus with 8 samples.

Results

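The genes examined here are 33 that belong to the ATF4 programme: the transcription factors that carry the stress signal, the effectors that relay or damp it, the enzymes that make serine, glycine, one-carbon units, asparagine, proline and cysteine, and the transporters that bring amino acids into the cell. They were taken by name from a list, out of 37074 gene names on a mouse microarray. The list was matched by 52 probes, 60-base oligonucleotides that each report 1 stretch of RNA. Of the 33 genes, 31 gave enough signal to be tested, as did 19360 of all genes. Signal was read in C2C12 cells, a mouse myoblast line, kept proliferating and at passage 10 in all 8 cultures. In 4 cultures the long non-coding RNA Pvt1 had been silenced by lipid transfection of GapmeRs, antisense oligonucleotides with locked nucleic acid ends whose target RNA is cut by RNase H. The other 4 cultures were transfected in the same way with negative control GapmeRs. All cells are of 1 established line, and the cultures carry the label of biological replicates.

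ATF4 is the central transcription factor of the integrated stress response. Kinases that sense amino acid shortage, unfolded protein, double-stranded RNA or haem deficiency phosphorylate the initiation factor eIF2, which slows protein synthesis in general while the ATF4 message is translated more. ATF4 then pairs with C/EBP and other leucine zipper proteins and binds a composite C/EBP-ATF element in the promoters of genes for amino acid synthesis and uptake. In muscle cells the same programme responds to mitochondrial dysfunction, where the mitochondrial folate enzymes are among its best known targets. The arrays measure RNA and not the ATF4 protein.

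The silencing oligonucleotides and the promoter element are shown first. The design rests on the oligonucleotides, while the element is the sequence that ATF4 binds and was not used to choose the genes. The labels name 2 GapmeRs against Pvt1, each of 16 bases, and do not say which culture received which.

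Pvt1_1: ACCGTAGTAGAGTTAA

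Pvt1_3: AGTCAACGCTTCACAT

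The element was searched as TGATGNAA, or TTNCATCA when read from the other strand, in RefSeq promoters of GRCm38.p6 that run from 250 bases before to 50 bases after the start site. It was present in 11 of the 29 listed genes with a promoter in that table (37.9%), against 4.51% of 27025 genes and 3.97% of 32851 promoters. Cth, Slc7a3, Slc7a5 and Slc1a5 had no entry. Windows of 40 bases around the match (39 for Asns) are given for 5 genes on which the results below turn, as read on the strand of the gene, with the 8 matched bases in capitals.

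Atf3, chr1:191183420-191183459, minus strand: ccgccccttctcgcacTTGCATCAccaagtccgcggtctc

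Chac1, chr2:119351033-119351072, plus strand: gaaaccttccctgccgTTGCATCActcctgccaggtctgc

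Pycr1, chr11:120643828-120643867, minus strand: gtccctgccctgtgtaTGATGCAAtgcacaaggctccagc

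Asns, chr6:7693210-7693248, minus strand: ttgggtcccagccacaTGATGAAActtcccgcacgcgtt

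Slc7a11, chr3:50443656-50443695, minus strand: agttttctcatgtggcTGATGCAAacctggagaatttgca

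The Slc7a11 promoter held a further match on the opposite strand, 19 bases nearer the start site. The other genes with a match were Nupr1, Trib3, Herpud1, Vldlr, Fgf21 and Slc1a4. A match is a run of letters and does not show that ATF4 is bound there.

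**Figure D1:**
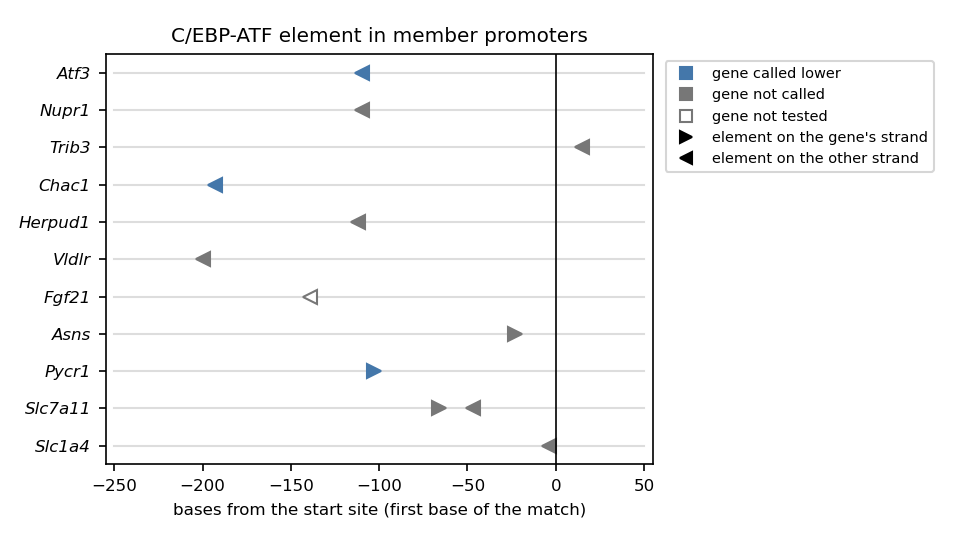
Position of each match to the C/EBP-ATF element in the promoters of 11 listed genes, as bases from the annotated start site (negative values lie upstream). Arrowheads give the strand and colours whether the RNA of the gene was called lower in Pvt1-silenced cells. Matches lie between -200 (Vldlr) and 15 (Trib3), and the 3 genes called lower (Atf3, Chac1 and Pycr1) lie within that range.

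Silencing was seen in the target itself. The brightest Pvt1 probe had log2 signals of 9.65, 9.79, 10.31 and 9.70 in controls and 7.09, 6.69, 7.85 and 6.39 in silenced cells, a change of -2.86 (SE 0.32, limma adjusted p 0.000682). All arrays lay on 1 slide read in 1 scan. Controls 1 to 3 and silenced 1 were in its upper row, the other 4 arrays in its lower row. The share of positive and significant spots ranged from 58.8% to 62.5% in controls and from 59.8% to 61% in silenced 1 to 3, while the dimmest array, silenced 4, had 51.6%. The myoblast markers Myod1, Cdh15, Des and Itga7 were well above background on every array, while Myf5 was so on none. The summed signal of 6 myoblast markers was 103000 to 124000 in controls and 67800 to 87700 in silenced cells. That of 6 myotube markers was 7150 to 8690 and 3250 to 5360. Neither list moved as one. Without masking of dim spots, Myod1 had -1.77 (limma adjusted p 0.00381), Des -1.17 (adjusted p 0.0144) and Cdh15 -0.68 (adjusted p 0.0254). Itga7 (-0.13) and Myog (0.46) were not called. Acta1 had -1.65 (adjusted p 0.00375), while Actn3 (-0.59), Myh3 (-0.25) and Tnnt3 (0.06) were not called. Myh1 and Ckm were well above background on no silenced array. The sum of 4 adipocyte markers was 160 to 293 in controls and 304 to 561 in silenced cells, and none of them was called. Transcripts of liver, a tissue other than muscle, had a higher summed signal in silenced cells. Of 16 liver genes, 13 stood well above background on none of the controls and 6 on none of the 8 arrays. Those that did so on every array of their group were 2 in controls and 6 in silenced cells. Alb and Mup1 did so on all 4 silenced arrays and on none of the controls. The summed liver signal was 1160 to 2030 in controls and 4800 to 5980 in silenced cells, and the sum of 4 macrophage markers was 1740 to 1860 and 3880 to 6750. That list was mixed: without masking of dim spots Cd68 rose (2.07, limma adjusted p 0.000302), Csf1r fell (-0.80, adjusted p 0.00537), Ptprc had 1.47 (adjusted p 0.0942) and Lyz2 was well above background on no array. The part of these differences in the results below was not tested.

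Across the 31 tested genes, 12 were lower in Pvt1-silenced cells and 1 was higher at a limma adjusted p under 0.05 with each gene read by its brightest tested probe. Of all 19360 tested genes, 14.0% were called lower and 5.99% higher. The 12 were Atf3, Chac1, Ppp1r15a, Shmt2, Mthfd2, Aldh18a1, Pycr1, Cth, Slc7a5, Slc3a2, Slc7a1 and Slc38a2, and the 1 higher was Ddit4. The median change of the 31 was -0.46 on the log2 scale, against -0.09 for all tested genes. In such bulk RNA, fewer cells of a type and less RNA per cell cannot be told apart. The groups did not overlap for 16 genes with silenced arrays lower and 2 with silenced arrays higher, as was so for 18.9% and 7.10% of all tested genes.

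Another scaling between arrays, cyclic loess, added higher calls and left the lower ones as they were. Under quantile normalization, which the study used, the median of all probes lay at -0.19, and under cyclic loess at 0.02. Relative to the median of all probes, the lower genes ran from -1.74 (Cth) to -0.59 (Slc7a1), leaving aside Pycr1 and Slc7a5, whose silenced signal was not well above background, and Ddit4 was at 1.54. Cyclic loess called the same 12 genes lower, with 14.3% of all genes lower, and called 4 genes higher (Ddit4, Ddit3, Slc7a11 and Slc6a9), with 22.1% of all genes higher. Among all genes called, 70.1% were lower under quantile normalization and 39.2% under cyclic loess. The median of the 31 genes was then -0.28, against 0.11 for all tested genes.

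**Figure D2:**
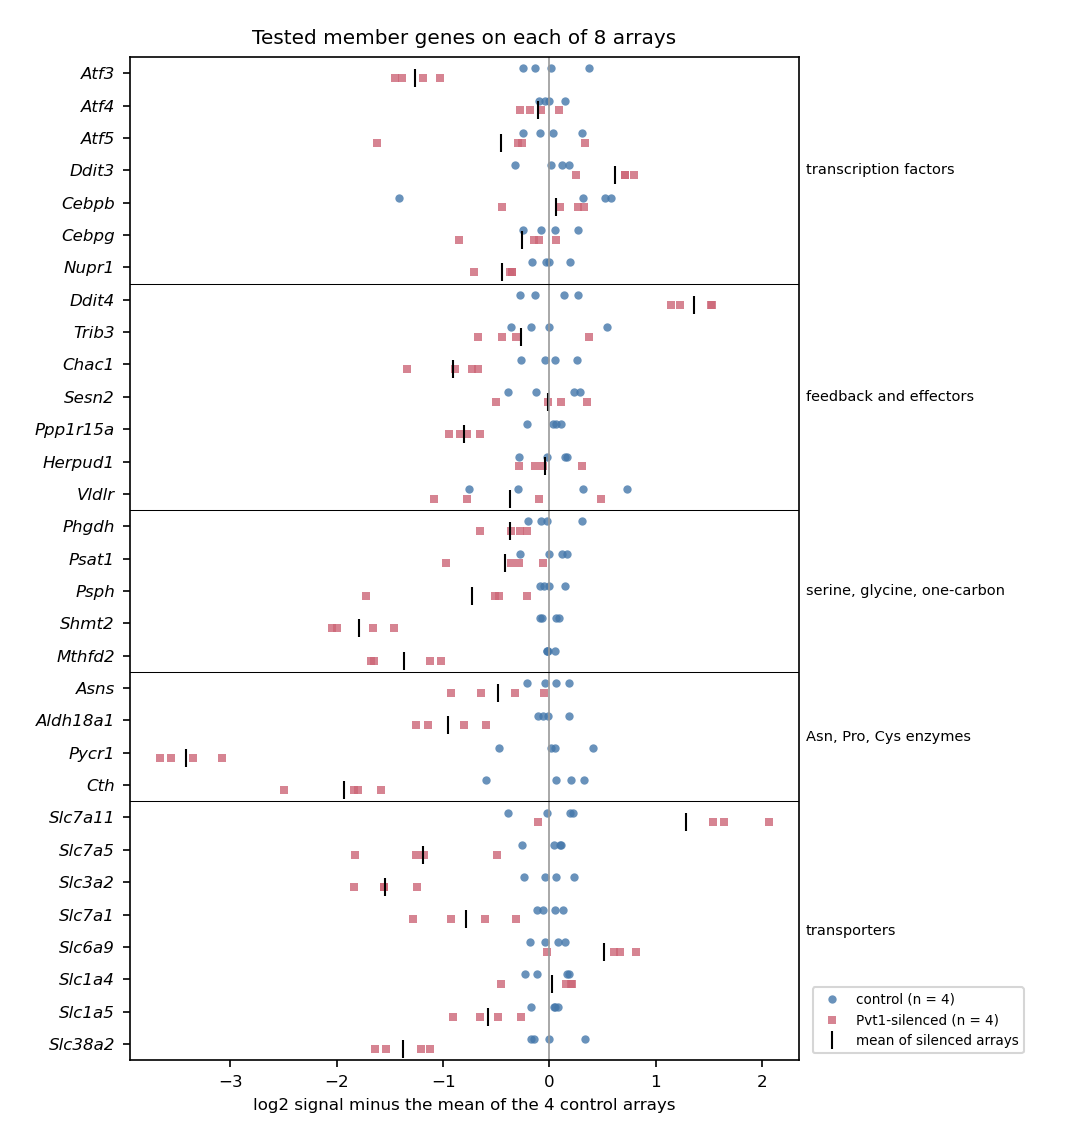
Log2 signal of each of 31 tested genes on every array, less the mean of the 4 control arrays, with controls as blue circles, Pvt1-silenced cultures as red squares and the silenced mean as a black bar. Shmt2 and Cth lie well to the left of controls on all 4 silenced arrays, as does Pycr1, whose silenced values are not well above background, and Ddit4 has all 4 silenced arrays to the right of every control.

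The row of the slide was set as a block because controls and silenced arrays were unequally spread over it. With that block 7 of the 12 remained lower (Atf3, Shmt2, Mthfd2, Pycr1, Cth, Slc3a2 and Slc38a2) and Ddit4 remained higher, while of all genes 5.97% were called lower and 2.41% higher. Adjusted p was 0.0735 for Chac1, 0.0569 for Ppp1r15a, 0.0567 for Aldh18a1, 0.0857 for Slc7a5 and 0.153 for Slc7a1. Within the upper row (3 controls, 1 silenced) all 12 differences were below 0, and so they were within the lower row (1 control, 3 silenced). Without Pycr1 and Slc7a5 they ran from -1.64 (Shmt2) to -0.59 (Slc7a1) in the upper row and from -2.37 (Cth) to -0.89 (Slc7a1) in the lower. The median difference of the 31 genes was -0.37 in the upper row, where all genes had 0.06, and -0.61 in the lower row, where all genes had -0.19. When control 3 (the outlying array for Cebpb and a Psat1 probe) and the dim silenced 4 were both left out, a choice made after seeing the data, 12 genes were called lower and 4 higher, while of all genes 17.8% were called lower and 21.7% higher.

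Of the 7 transcription factors, 1 passed the test. Atf3, a zipper protein induced downstream of ATF4 (probe at chr1:192994547-192994606, minus strand, build mm9), fell. Its log2 signal was 11.14, 11.26, 11.76 and 11.41 on control arrays 1 to 4 and 10.2, 10.36, 10.01 and 9.94 on silenced arrays 1 to 4. Every silenced array lay below every control. The change was -1.26 (SE 0.21, limma adjusted p 0.00334), which left 41.6% of the control level.

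Atf4 itself gave a different answer at each of its probes, 823 bases apart. The brightest, nearer the 3′ end (chr15:80087902-80087961, plus strand), read 16.45, 16.36, 16.60 and 16.41 in controls and 16.27, 16.38, 16.54 and 16.18 in silenced cells. These ranges overlapped, and the change of -0.11 was not called (SE 0.18, limma adjusted p 0.709). The probe nearer the 5′ end (chr15:80087079-80087138) read 14.34, 14.5, 14.02 and 14.48 in controls and 12.87, 13.2, 12.68 and 12.24 in silenced cells. Here the groups were separate, and the change of -1.59 was called (SE 0.24, limma adjusted p 0.00239). Cyclic loess gave -0.20 and -1.40.

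Ddit3, which encodes CHOP, a zipper protein linked to cell death under lasting stress, also split by probe. Its brightest probe (chr10:126732518-126732821, plus strand, a span that is longer than the probe) read 9.7, 10.14, 10.21 and 10.04 in controls and 10.82, 10.73, 10.73 and 10.27 in silenced cells. All silenced values were above all controls, and the change of 0.62 was not called (SE 0.21, limma adjusted p 0.064). It was called under cyclic loess (0.78, adjusted p 0.00162) and without silenced 4 (0.75, adjusted p 0.0167). The other probe (chr10:126731579-126731638) was designed on another transcript model and lay 939 genomic bases nearer the 5′ end. It read 8.52, 8.69, 9.36 and 8.61 against 7.96, 7.58, 8.19 and 6.83, a change of -1.16 that was called (limma adjusted p 0.0295), but not with the slide row as a block (-0.99, adjusted p 0.134).

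The remaining factors did not pass the test. Nupr1, a small stress-induced chromatin protein, had a change of -0.45 (limma adjusted p 0.119), with no overlap between groups. Atf5, a further ATF relative, had -0.46 at its brightest probe and -0.64 at the other, and without silenced 4 its brightest probe stood at -0.07. Cebpg, a dimer partner of ATF4, had -0.26 at its brightest probe and 0.53 at a probe 444 bases nearer the 3′ end, which cyclic loess called (0.85, adjusted p 0.00169). Cebpb, another partner, had 0.06, and its control 3 value of 10.9 lay far below the other controls (12.63 to 12.89). Without control 3 the Cebpb change was -0.41, still not called (limma adjusted p 0.248).

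Among the feedback and effector genes, 2 fell and 1 rose of 7 tested. Ddit4, which encodes REDD1, an inhibitor of the growth kinase mTORC1, rose (chr10:59412486-59412545, minus strand). Its log2 signal was 12.49, 12.35, 12.89 and 12.76 in controls and 14.15, 13.85, 14.14 and 13.77 in silenced cells. The lowest silenced array stood above the highest control. The change was 1.35 (SE 0.21, limma adjusted p 0.00229), or 255% of the control level, and the call held in all 24 alternatives run on this gene.

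Chac1, which degrades glutathione, fell (chr2:119179990-119180049, plus strand). It read 11.93, 12.16, 12.46 and 12.25 in controls and 11.31, 11.53, 11.47 and 10.86 in silenced cells, a change of -0.91 (SE 0.22, limma adjusted p 0.0168). Silenced 4 was the lowest of the 8 values, and the groups were separate with or without it. Without silenced 4 the change was -0.77 (adjusted p 0.0158). The call was lost without control 2 (adjusted p 0.051) and without control 4 (0.0586).

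Ppp1r15a encodes GADD34, the phosphatase subunit that reverses eIF2 phosphorylation (chr7:52778320-52778379, minus strand). It read 12.27, 12.51, 12.54 and 12.59 in controls and 11.64, 11.82, 11.53 and 11.7 in silenced cells. The spread within each group was small (SD 0.14 and 0.12, n = 4), and the change of -0.80 was called (SE 0.18, limma adjusted p 0.0125). Without control 4 adjusted p was 0.0565.

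The other effectors did not pass. Trib3, a pseudokinase that restrains ATF4, had a change of -0.27 (limma adjusted p 0.546). Sesn2, a leucine sensor that restrains mTORC1, had -0.02, and its sign turned under several scalings. Vldlr, a lipoprotein receptor, had -0.36 and was well above background on 2 control arrays and 1 silenced array. Herpud1, of the endoplasmic reticulum quality control machinery, had -0.05 at its brightest probe (chr8:96919117-96919176, plus strand), and this turned to 0.09 under cyclic loess. At a probe 542 bases nearer the 5′ end Herpud1 read 10.5, 10.89, 10.54 and 10.87 in controls and 9.26, 9.41, 8.66 and 8.86 in silenced cells, a change of -1.65 that was called (SE 0.23, limma adjusted p 0.00152). Fgf21, a stress hormone of liver and muscle, was well above background on no array and could not be tested.

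In the serine, glycine and one-carbon group the 2 mitochondrial folate enzymes fell and the 3 enzymes of serine synthesis did not pass the test. Shmt2 moves a carbon from serine to folate inside mitochondria (chr10:126954811-126954870, minus strand). It read 14.88, 15.04, 14.86 and 15.01 in controls and 13.29, 13.49, 12.9 and 12.95 in silenced cells. The gap between the groups was several times the spread within either (SD 0.09 and 0.28, n = 4). Silenced cells kept 28.9% of the control level, a change of -1.79 (SE 0.20, limma adjusted p 0.000701). A dim Shmt2 probe near the 5′ end, well above background on 3 control arrays and no silenced array, gives only a bound (controls at least 1.89-fold higher) and was not called (limma adjusted p 0.0627).

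Mthfd2, which carries the next steps of the mitochondrial folate pathway, read 12.46, 12.53, 12.46 and 12.47 in controls and 11.36, 11.46, 10.83 and 10.8 in silenced cells (chr6:83256518-83256577, minus strand). The change was -1.37 (SE 0.22, limma adjusted p 0.00263). Its other probe, 657 bases nearer the 3′ end, was called lower too (-0.93, limma adjusted p 0.0239), but not with the slide row as a block (adjusted p 0.112). Both groups were separate at both probes.

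Phgdh, Psat1 and Psph, which turn a glycolytic intermediate into serine, had changes of -0.37, -0.42 and -0.73 (limma adjusted p 0.216, 0.239 and 0.124). The groups did not overlap for Phgdh and Psph. Silenced 4 set much of the value for Psph, where it read 10.91 and the other silenced arrays 12.12 to 12.42. Without it the Psph change was -0.40 (limma adjusted p 0.0955). A further Psat1 probe nearer the 5′ end had -1.67 (limma adjusted p 0.137), with control 3 at 8.17 and the other controls at 11.52 to 11.81.

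Of the asparagine, proline and cysteine enzymes, 3 of 4 fell, with a group median of -1.44. Pycr1, the mitochondrial enzyme of the last step of proline synthesis (chr11:120501179-120501238, minus strand), read 8.13, 8.62, 9.01 and 8.65 in controls and 5.52, 4.94, 5.25 and 5.04 in silenced cells. It was well above background on all 4 control arrays and on no silenced array, so its silenced value is only a bound. Controls were at least 5.41-fold higher (limma adjusted p 0.000124). Another Pycr1 probe was well above background on no array and was not tested.

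Aldh18a1, which makes the precursor of proline further up the same route, also fell (chr19:40624784-40624843, minus strand). It read 12.39, 12.3, 12.34 and 12.59 in controls and 11.6, 11.81, 11.26 and 11.15 in silenced cells. The groups were separate and the change was -0.95 (SE 0.21, limma adjusted p 0.0114).

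Cth, which releases cysteine from cystathionine (chr3:157557667-157557726, minus strand), read 10.02, 9.88, 9.22 and 10.14 in controls and 8.23, 8.01, 7.98 and 7.32 in silenced cells. Its lowest control, array 3, was still above every silenced array. Silenced cells kept 26.2% of the control level, a change of -1.93 (SE 0.28, limma adjusted p 0.00174), and the call held in all 24 alternatives run on it.

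Asns, asparagine synthetase, is a textbook ATF4 target and another gene whose probes disagreed. The brightest (chr6:7625171-7625228, minus strand) read 13.99, 14.16, 14.38 and 14.26 in controls and 13.87, 13.55, 14.15 and 13.27 in silenced cells, overlapping ranges with a change of -0.49 (SE 0.23, limma adjusted p 0.162). The probe 473 bases nearer the 5′ end of the same transcript (chr6:7626110-7626255) read 12.07, 12.13, 12.37 and 12.13 against 10.8, 11.0, 10.29 and 10.5. There the groups were separate and the change of -1.53 was called (SE 0.21, limma adjusted p 0.00156).

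Among the transporters 4 of 8 tested were called lower, with a group median of -0.68. Slc3a2, the heavy chain CD98 that carries several amino acid exchangers to the membrane, fell at all 3 of its tested probes. The brightest (chr19:8782189-8782248, minus strand) read 14.64, 14.84, 15.11 and 14.94 in controls and 13.33, 13.64, 13.04 and 13.33 in silenced cells. Its change was -1.55 (limma adjusted p 0.0013), and those of the others were -1.49 (adjusted p 0.00944) and -1.89 (adjusted p 0.00423). No control value was reached by a silenced one at any of the 3.

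Slc38a2, the sodium-coupled neutral amino acid transporter SNAT2, read 15.01, 15.04, 15.52 and 15.18 in controls and 13.98, 14.06, 13.65 and 13.55 in silenced cells (chr15:96518491-96518550, minus strand). The groups were separate and the change was -1.38 (SE 0.21, limma adjusted p 0.0024). Another Slc38a2 probe was well above background on no array.

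Slc7a5, the light chain LAT1 that pairs with CD98 to import large neutral amino acids, was called lower (limma adjusted p 0.0144). It read 5.81, 5.8, 5.44 and 5.74 in controls and 5.2, 4.44, 4.52 and 3.87 in silenced cells, but its only probe was well above background on no array of either group, so no fold is given. Slc7a1, the cationic amino acid transporter CAT1, read 13.87 to 14.11 in controls and 12.7 to 13.67 in silenced cells. Its change of -0.78 was called (SE 0.24, limma adjusted p 0.0407), and the call was lost in 11 of 24 alternatives, among them the omission of any 1 control.

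Slc7a11, the cystine-glutamate exchanger xCT, differed among the silenced arrays at its brightest probe (chr3:50176047-50176106, minus strand). It read 5.68, 6.26, 6.04 and 6.29 in controls and 7.61, 7.71, 8.13 and 5.96 in silenced cells, so silenced arrays 1 to 3 stood above every control and silenced 4 within them. The change was 1.28 (SE 0.42, limma adjusted p 0.0542). Without silenced 4 it was 1.75 (adjusted p 0.00178), and under cyclic loess 1.62 (adjusted p 0.00158). The probe was well above background on 2 control and 3 silenced arrays. A probe 6347 bases nearer the 3′ end was called lower (limma adjusted p 0.0479, or 0.0546 when the slide row was a block). This 3′ probe was well above background on no array, so no size of change is read from it.

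The remaining transporters did not pass. Slc6a9, the glycine transporter GlyT1, had 0.51 (limma adjusted p 0.136) and, under cyclic loess, 0.65 (adjusted p 0.00419). Its silenced 4 value of 11.39 was among the controls, and without that array the change was 0.69 (adjusted p 0.0159). Slc1a5, the glutamine carrier ASCT2, had -0.58 with no overlap (limma adjusted p 0.0666), and Slc1a4, its relative ASCT1, had 0.03 (adjusted p 0.949). Slc7a3, a further cationic transporter, was well above background on 1 control array and had too few values to be tested.

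**Figure D3:**
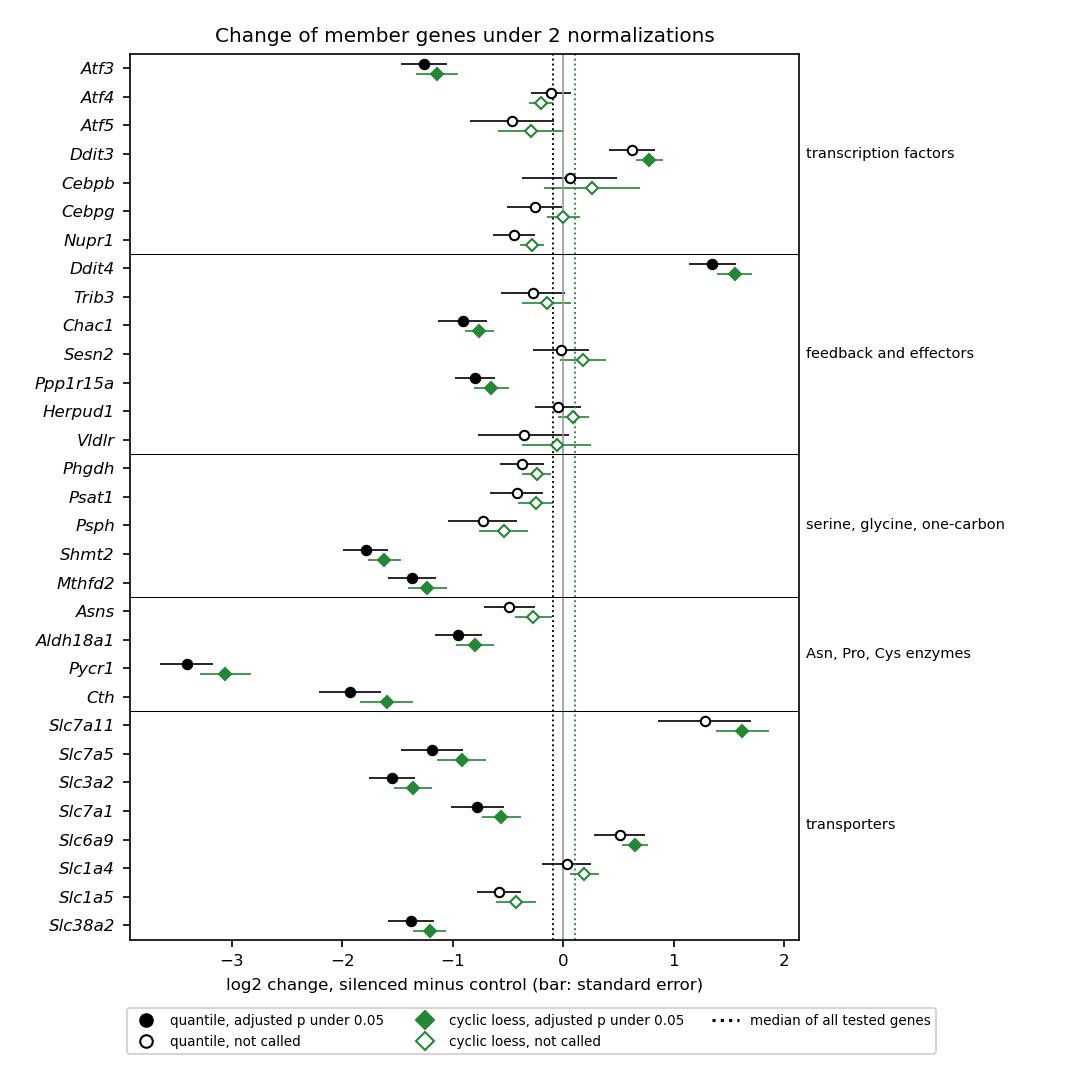
Log2 change (silenced minus control, bar: standard error) of 31 tested genes under quantile normalization (black circles) and cyclic loess (green diamonds), filled where the limma adjusted p was under 0.05. Dotted lines mark the medians of all tested genes, -0.09 and 0.11. The same 12 genes are filled to the left under both, and Ddit3, Slc7a11 and Slc6a9 are filled to the right under cyclic loess alone.

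The disagreement between probes was seen across the list. Of 12 genes with more than 1 tested probe, 9 had both outermost probes well above background on all 8 arrays, a limit set after seeing the data. The pairs of Shmt2, Slc7a11 and Slc38a2 each held a probe that was well above background on no silenced array. Their values ran the other way, with the lower change at the 3′ probe, and no direction is read from them. Over all 12 pairs the 5′ probe had the lower change in 9, and 6 probes at the 5′ and 5 at the 3′ end were called lower. Of 6246 other genes with several tested probes, the 5′ probe had the lower change in 69.8%. In the 9, the probe nearer the 5′ end had the lower change in each, with medians of -1.53 at the 5′ and -0.42 at the 3′ probes, of which 6 and 2 were called lower. The same lean was present outside the list. In 3139 other genes with such pairs, the 5′ probe had the lower change in 73.6%, the medians were -0.46 and -0.01, and 29.8% of 5′ and 11.8% of 3′ probes were called lower. Position in the transcript, signal and transcript model differ together between such probes, and their parts cannot be told apart. When the probe nearest the 3′ end stood for each gene, 13 were lower (the added one at a Slc7a11 probe not well above background) and 1 higher, against 14.2% and 5.91% of all genes read in that way. With the mean of the probes that had values on all 8 arrays, a choice made after seeing the data, 15 were lower and 1 higher, against 16.8% and 4.86% of all genes. With that mean Atf4 (-0.85, adjusted p 0.0117), Asns (-1.01, adjusted p 0.00567) and Herpud1 (-0.85, adjusted p 0.0109) were called lower.

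**Figure D4:**
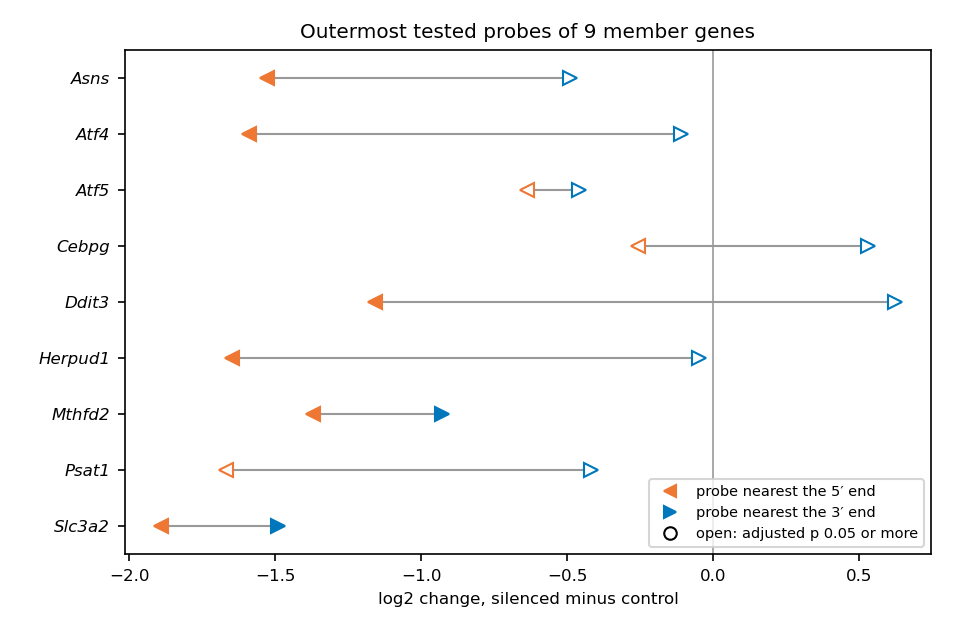
Log2 change of the outermost tested probes of 9 genes with both probes well above background on all 8 arrays, with the probe nearer the 5′ end in orange and the one nearer the 3′ end in blue, filled where the limma adjusted p was under 0.05. For Atf4, Herpud1, Asns and Ddit3 the 5′ probe is filled at -1.59, -1.65, -1.53 and -1.16 while the 3′ probe is open.

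Calls fell on listed genes with and without a match to the C/EBP-ATF element in the searched promoter window. Of 10 tested genes with it, 3 were called lower, with a median change of -0.41. Of 18 without it, 7 were called lower and 1 higher, with a median of -0.44. Genes without a match may hold the element outside that window or in another spelling, which was not searched. These are counts over genes of 1 list, and no test was made of their difference.

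Other genes of the pathway, from 5 lists by symbol, were called in both directions. Of 76 tested of 85, 11 were called lower and 9 higher, with a median of -0.12, and cyclic loess called 11 lower and 19 higher. The shares of all genes called, given above, were 14.0% and 5.99%, and 14.3% and 22.1% under cyclic loess, so the lower calls on these lists lay near the background. The higher calls, 9 of 76, were a larger share than that of all genes, while under cyclic loess, with 19 of 76, they lay near it. No test was made of these differences. The kinases and factors upstream of ATF4 had 1 lower and 1 higher of 17, its partners and related zipper proteins 1 and 1 of 9, and further stress targets 2 lower and 3 higher of 15. Further transporters had 1 lower and 1 higher of 11. Further amino acid and folate enzymes had 6 lower and 3 higher of 24.

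The falls among them with the greatest size were in Ahcy, Slc38a7, Eif2ak1 and Aldh1l2. Ahcy, which clears S-adenosylhomocysteine after methylation, had -2.48 (SE 0.55, limma adjusted p 0.0111), with silenced 4 at 5.53 and the other silenced arrays at 7.54 to 8.3. Slc38a7, a lysosomal glutamine and asparagine exporter, had -2.19 (SE 0.22, adjusted p 0.000525). Eif2ak1 encodes HRI, the haem-regulated eIF2 kinase, and read 10.00, 10.23, 10.26 and 10.30 in controls and 8.36, 8.29, 8.01 and 7.92 in silenced cells, a change of -2.05 (SE 0.19, limma adjusted p 0.000426). Aldh1l2, the mitochondrial formyltetrahydrofolate dehydrogenase, read 11.17, 11.11, 11.47 and 11.20 in controls and 9.36, 9.65, 9.25 and 9.01 in silenced cells, a change of -1.92 (SE 0.21, limma adjusted p 0.000601). Groups were separate for all 4.

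Among the 9 called higher, those with a change of at least 1.5 were Aldh1l1, Slc7a7 and Txnip. Aldh1l1, the cytosolic counterpart of Aldh1l2 and an enzyme abundant in liver, had 1.84 (SE 0.53, limma adjusted p 0.0327), and adjusted p was 0.0715 with the slide row as a block. Its silenced arrays 1 to 3 read 8.46 to 9.0, while silenced 4 (6.55) lay within the control range of 5.62 to 7.24. Slc7a7, a cationic and neutral amino acid exchanger, stood well above background on 3 silenced arrays and on none of the controls, and was at least 1.86-fold higher after silencing (adjusted p 0.00673). Txnip, which restrains glucose uptake and binds thioredoxin, read 10.48, 10.54, 10.47 and 10.83 in controls and 12.15, 12.34, 12.01 and 11.88 in silenced cells, a change of 1.51 (SE 0.19, limma adjusted p 0.00112). The liver signal given above rose in the same cultures, and its part in the Aldh1l1 value was not tested.

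**Figure D5:**
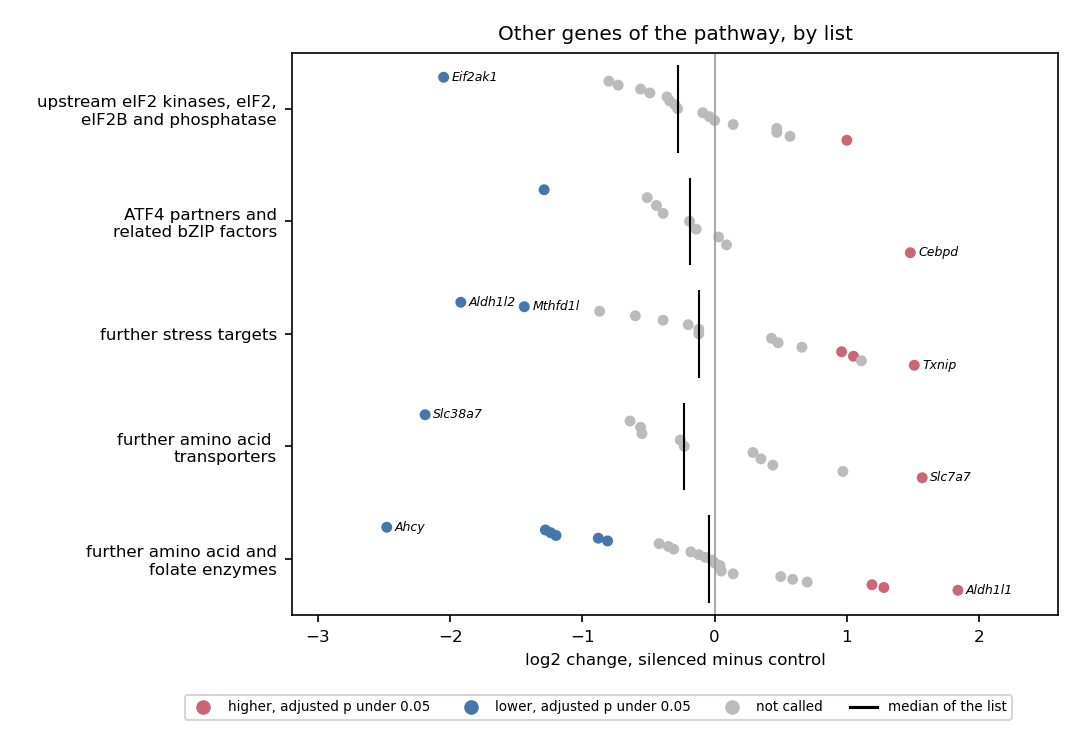
Log2 change (silenced minus control) of the 76 tested genes on 5 further lists, with genes called lower in blue, called higher in red and others in grey, and a black bar at the median of each list. The list medians lie between -0.28 and -0.05, and called genes stand on both sides in every list.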

How the data were processed

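RNA of 4 control and 4 Pvt1-silenced cultures was hybridised to 1-colour Agilent arrays. The deposited scanner files hold spot intensity with background subtracted, and flags (other units, 0 or 1) that the authors deposited with it. The program named in their headers is Feature Extraction 12.0.0.7, while the submitters' processing notes name 10.7.3.1. The authors' series table holds their processed intensity values and served as an alternative.

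Log2 of the deposited intensity was taken. Following the study's methods, spots not positive and significant were set to missing, arrays were quantile normalized and spots of 1 probe were averaged. Control and outlier spots were left out, and limma 3.58.1 (R 4.3.3) was chosen here. Probes with at least 3 values per group (28649 of 56605) were fitted with group as the only term, with Benjamini-Hochberg adjustment over all of them at 0.05. A gene is its tested probe of highest mean over 8 arrays. "Well above background" is the scanner program's flag. A probe with that flag on no array of 1 group has only a bound there, taken against the lowest flagged signal. The exact permutation p over 4 against 4 arrays could not fall below 0.0286.

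Symbols are those of the array. Of 44 probes of the listed genes with a RefSeq accession, 43 matched the RefSeq table and all 43 had the same symbol. Probe coordinates are on mm9, promoter coordinates on GRCm38.p6. Whether probes lie in coding or untranslated sequence was not analysed here. Every listed gene is accounted for. Array values are given for up to 3 called genes a role with the largest change, and for Atf4 and Ddit3. They are also given for Asns, Herpud1 and Slc7a11, whose probes disagreed, and for some genes of the further lists, chosen after their values were seen. Genes of the further lists were named if called with a change of at least 1.5, up to 4 a direction. The listed genes, further lists, markers and tests were chosen with earlier results of these data known. Marker sums are over linear signal without masking of dim spots. Precision is limited by the number of arrays. Alternatives were a 75th percentile shift, cyclic loess, normexp (offset 50), the authors' table, other filters, blocks for slide row and replicate number, a robust trended prior, the methods' t-test, other probes of a gene or their mean, and leaving out arrays. Figures were drawn with matplotlib 3.10.9.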

Additional observations from a re-analysis of the deposited data

Results flagged for a closer look

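Among 62 groups of 4 values (31 genes in 2 groups), 5 held an array far from the others, where chance gives about 1 in 20 groups. Of these, 3 were on silenced array 4, 1 on control 3 and 1 on control 1. On silenced 4, Ddit3 read 10.27 (others 10.73 to 10.82), Nupr1 11.8 (others 12.14 to 12.16) and Slc1a4 10.36 (others 10.97 to 11.03). On control 3, Cebpb read 10.9 (others 12.63 to 12.89). On control 1, Slc1a5 read 12.29 (others 12.5 to 12.54). None of these 5 genes was called in the comparison of groups.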

How the results depend on the processing

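Over 31 genes and their alternatives, 740 changes were computed. Of these, 641 kept direction and side of the threshold, 21 lost the call, 35 gained it and 43 turned sign. Among the 12 genes called lower, the sign turned once, for Slc38a2 with the mean of all its probes (0.46). Its dim probe had no value on silenced 4, so the mean there was of the bright probe alone. With probes that had values on all 8 arrays it was -1.38, and the list then had 15 lower and 1 higher, against 14 and 1 with all tested probes. The cause of the other changes was not tested.

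Genes of the list called lower numbered 7 when the slide row was a block and 9 to 12 when 1 array was left out, fewest without control 4. Genes called higher numbered 2 with the 75th percentile shift, normexp and the robust trended prior, 4 with cyclic loess, the authors' table, no mask and without control 3 and silenced 4 together, and 1 to 4 when 1 array was left out (4 without silenced 4). The further lists, with 11 lower and 9 higher, had 6 lower and 5 higher by the methods' t-test, 16 higher with the 75th percentile shift, 19 with cyclic loess, the authors' table and no mask, 14 with the robust prior and 25 without control 3 and silenced 4 together. Leaving out 1 array gave 9 to 14 lower and 6 to 17 higher. Over all probes, 5269 were lower and 1373 higher. The slide row block gave 2573 and 534, and the methods' t-test 2854 and 566. Higher probes were 2165 with the 75th percentile shift, 5416 with cyclic loess, 4509 with the authors' table and 4990 with no mask. Leaving out 1 array gave 2995 to 5737 lower and 684 to 3572 higher. The share of calls that were lower was 79.3%, and 49.3% with cyclic loess.

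Deviations of same-numbered arrays correlated at -0.02, 0.15, 0.2 and 0.06, and 4 of 8 arrays correlated best with their own number. These values do not settle whether replicate numbers pair the cultures. With the replicate block the list had 10 lower and 1 higher, the further lists 9 lower and 7 higher, and all probes 3994 lower and 1023 higher.

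Signs turned in genes that were not called. Relative to the median of all probes Atf4 was at 0.08, Sesn2 at 0.18 and Herpud1 at 0.14. With either mean of probes Ddit3 was at -0.27 and Cebpg at 0.14, and at the 3′ probe Cebpg was at 0.53. The 3′ probe of Slc7a11 gave -1.07. That probe was well above background on no array, so neither a size nor a direction is read from its value. With cyclic loess, the authors' table and no mask in turn, Cebpg was at 0, 0.04 and 0.03, Sesn2 at 0.18, 0.22 and 0.23, and Herpud1 at 0.09, 0.11 and 0.12. Cebpb was at -0.12 with the row block, and Slc1a4 at -0.01 with the 75th percentile shift and -0.04 with spots well above background. Leaving out 1 array gave -0.41 to 0.25 for Cebpb, -0.14 to 0.15 for Sesn2, -0.16 to 0.03 for Herpud1 and -0.05 to 0.19 for Slc1a4. Without control 3 and silenced 4 together, Atf5 was at 0.04, Cebpb -0.24, Cebpg 0.03, Trib3 0.05, Sesn2 0.02, Herpud1 0.08 and Vldlr 0.11. Signal over background limits Slc7a5, Vldlr, Slc7a11, Fgf21 and Slc7a3.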

Other observations

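Further genes of the pathway lists are named here after their values were seen. The folate enzymes on those lists did not move as one. Mthfd1l, a mitochondrial folate enzyme, fell (-1.44, SE 0.20, limma adjusted p 0.00162), and so did the cytosolic Shmt1 (-1.28, SE 0.25, adjusted p 0.00621), while the cytosolic Mthfd1 had -0.31 (adjusted p 0.725), with silenced 4 at 12.14 and the other silenced arrays at 14.37 to 15.12, and Aldh1l1, described above, was called higher. Mthfd1l read 12 to 12.24 in controls and 10.38 to 11.03 in silenced cells, without overlap. Both subunits of glutamate-cysteine ligase, which makes the precursor of glutathione, fell as well, Gclc by 1.20 and Gclm by 1.24 on the log2 scale (adjusted p 0.00832 and 0.0021), with no overlap for either.

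Of 15 further stress targets, 3 were called higher and 2 lower, with a median of -0.12. Gdf15, a secreted stress cytokine, rose (1.05, SE 0.23, adjusted p 0.0101), as did Tnfrsf10b, a death receptor and CHOP target (0.96, SE 0.20, adjusted p 0.00892). Among zipper proteins, Cebpd rose (1.48, SE 0.29, adjusted p 0.00635) and Cebpa was at least 1.84-fold higher in controls, where its probe was well above background on all 4 arrays and in silenced cells on none. Eif2ak3, which encodes the eIF2 kinase PERK, was called higher (1.00, SE 0.31, adjusted p 0.0432), with silenced 4 (8.89) within the controls, and had an adjusted p of 0.143 with the slide row as a block. Of the amino acid enzymes, Gpt, an alanine aminotransferase, rose (1.28, SE 0.23, adjusted p 0.00435), and so did Gldc of the glycine cleavage system (1.19, SE 0.35, adjusted p 0.0354). The Gldc groups overlapped, with silenced 4 (6.73) within the control range of 5.70 to 6.74, and adjusted p was 0.12 with the slide row as a block. Liver signal rose in the same cultures, and its part in these values was not tested.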
